A study of Mus musculus with 9 samples.

Results

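The fibril collagens of cartilage, collagens II, IX and XI, are encoded by Col2a1, Col9a1, Col9a2, Col9a3, Col11a1 and Col11a2. All probe sets annotated to these 6 symbols in the table of the Affymetrix mouse array were taken, which gave 10 of 45037 probe sets and 6 of 18193 genes. RNA of mouse embryos at embryonic day 16.5 was measured on 9 arrays, 3 each of the condyle of the temporomandibular joint, its fossa and the whole body. The temporomandibular joint is the hinge of the jaw, the condyle is the head of the lower jaw bone that moves in it, and the fossa is the socket on the skull side. The labels name no strain, genotype or agent, and give the same age, laser capture of fresh frozen tissue and RNA isolation kit for all 3 groups. The design text calls the samples biological triplicates without saying which embryo each came from, so p-values reflect the spread between these samples, which may in part be technical. The sources used here do not say whether condyle and fossa were taken from the same embryos.

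Cartilage fibrils are mixed polymers. Collagen II forms their bulk, collagen XI lies largely inside them and limits their width, and collagen IX sits on their surface, where it links fibrils to each other and to other matrix proteins. Collagen II has 1 kind of chain, from Col2a1, whereas collagen IX joins chains from Col9a1, Col9a2 and Col9a3, and collagen XI joins chains from Col11a1, Col11a2 and Col2a1. Chondrocytes switch these genes on under the transcription factor Sox9 with its partners Sox5 and Sox6. Col11a1 is also active outside cartilage, where its chain can assemble with chains of collagen V. Condylar cartilage is a secondary cartilage that forms from the periosteum of the jaw bone, and the fossa ossifies mainly without a cartilage model.

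Promoters are shown for Col9a1, whose probe sets disagree in the results and which has a pair of annotated starts, and for Col9a2, a chain of the same molecule. RefSeq sequence of build GRCm38.p6 was at hand for 4 of the 6 genes, as 5 windows of 250 bases that end just before a start in the promoter table. Several windows reach past the first base that RefSeq gives for the gene as a whole, by 21 bases at the first start of Col9a1, 61 at Col11a1 and 219 at Col11a2, and the window of the second Col9a1 start lies wholly inside that gene. Col2a1 and Col9a3 had no entry. In the chicken, cartilage uses the upstream start of Col9a1 and the eye the downstream one. The windows below lie on the + strand, written 5′ to 3′, at chr1:24177360-24177609 for the first start of Col9a1, chr1:24194953-24195202 for its second start and chr4:121039316-121039565 for Col9a2. Capitals mark matches to a motif.
Col9a1, first start: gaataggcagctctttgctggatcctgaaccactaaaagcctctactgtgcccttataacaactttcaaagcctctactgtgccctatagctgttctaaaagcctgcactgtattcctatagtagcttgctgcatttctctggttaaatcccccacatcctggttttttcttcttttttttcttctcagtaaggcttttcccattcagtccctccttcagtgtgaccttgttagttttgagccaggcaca
Col9a1, second start: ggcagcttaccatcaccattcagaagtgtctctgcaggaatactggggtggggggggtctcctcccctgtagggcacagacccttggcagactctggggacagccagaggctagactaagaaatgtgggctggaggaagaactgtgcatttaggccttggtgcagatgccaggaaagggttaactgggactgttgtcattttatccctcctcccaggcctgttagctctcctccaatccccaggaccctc
Col9a2: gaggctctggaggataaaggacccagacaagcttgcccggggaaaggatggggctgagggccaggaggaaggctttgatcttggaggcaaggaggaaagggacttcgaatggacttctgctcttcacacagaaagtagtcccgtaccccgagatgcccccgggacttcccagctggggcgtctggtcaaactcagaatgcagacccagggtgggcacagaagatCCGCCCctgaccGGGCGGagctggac
4 motifs were searched on both strands, and none overlaps another. ACAAAG and ACAATG, letters that SOX proteins can bind, occurred in none of the 5 windows, against 16.5% and 10.7% of 32851 promoter windows of the same length. Other forms of the SOX motif were not searched, and 5 windows are too few to show that such sites are lacking. TATAAA, the TATA box letters, occurred in 12.4% of those windows, and GGGCGG, the GC box letters, in 32.7%. Col9a1 held none of the 4 motifs at either start. Col9a2 held GGGCGG on the minus strand at bases -26 to -21 from the start, and again on the plus strand at -14 to -9. Col11a1 held GGGCGG on the plus strand at -110 to -105 and, inside the annotated gene, at -19 to -14. Col11a2 held TATAAA at -143 to -138 and GGGCGG on the minus strand at -133 to -128 and at -38 to -33, all of them inside the annotated gene. The share of G and C was 43.6% and 56.0% at the starts of Col9a1, 60.4% for Col9a2, 62.4% for Col11a1 and 57.6% for Col11a2. A match is a run of letters and not a shown binding site.

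Levels are log2 intensities of a probe set, and differences are on the log2 scale with the standard error (SE) from limma. Each array's background limit was set by the brightest of 27 control probe sets against Bacillus subtilis transcripts, and lay at 2.87 to 2.94 in condyle, 2.89 to 3.52 in fossa and 3.09 to 3.36 in whole body. Levels of different probe sets also reflect how well each probe binds, so the genes are not ranked by level. All 10 collagen probe sets lay above the limit on at least 1 array, and 6 on all 9 arrays. A fold is given as "at least" where an array of the dimmer group was at or under its limit.

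Every collagen gene but Col11a2 had a probe set that was higher in both joint tissues than in whole body, at Benjamini-Hochberg adjusted p under 0.05 over all probe sets. In condyle 6 of the 10 probe sets were higher and 0 lower, against 4.21% of all probe sets higher and 1.99% lower. In fossa 7 were higher and 0 lower, against 3.69% of all probe sets higher and 13.1% lower. The median log2 difference of the 10 probe sets was 2.91 for condyle minus whole body and 3.28 for fossa minus whole body, where the medians over all probe sets were -0.05 and -0.08. Both comparisons use the same whole body arrays. Between condyle and fossa none of the 10 passed the threshold by limma, although 1 had an unadjusted p under 0.05. Of all probe sets 16% were called between them in either direction. In bulk samples, fewer cells of a type and less RNA per cell cannot be told apart.

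**Figure D1:**
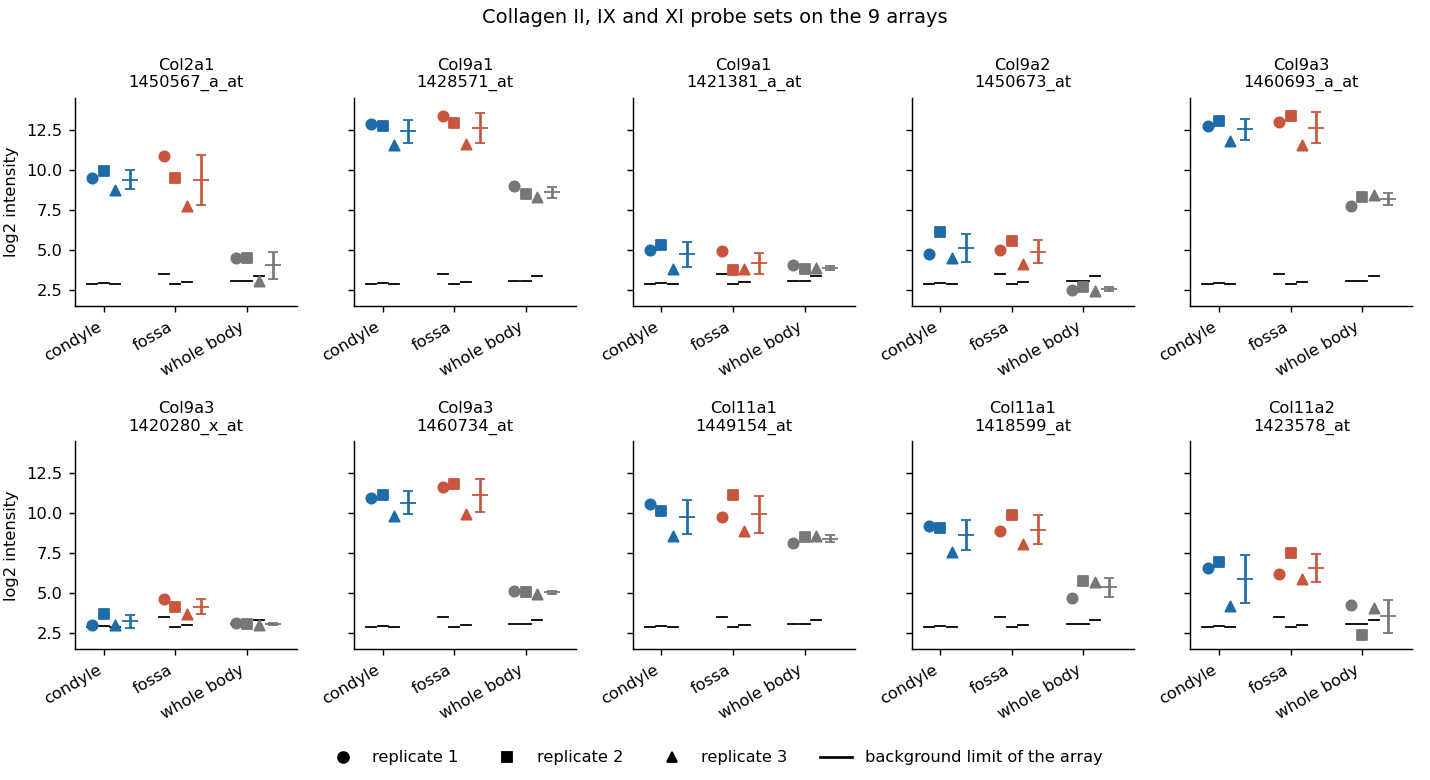
Log2 intensity of each of the 10 collagen probe sets on each array of condyle, fossa and whole body, with replicates by marker shape. Short black lines are the background limit of the array, and the bar beside each group is its mean ± SD of 3 arrays. The third condyle array is the lowest of its group in all 10 panels.

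Col2a1 encodes the chain of collagen II. Its probe set 1450567_a_at had log2 levels of 9.49, 9.91 and 8.74 in condyle, 10.90, 9.53 and 7.78 in fossa, and 4.53, 4.51 and 3.09 in whole body. All condyle and fossa arrays lay above all whole body arrays, the third of which was at background. The mean log2 level was 9.38 ± 0.59 in condyle, 9.40 ± 1.56 in fossa, against 4.04 ± 0.83 in whole body (SD, n = 3 each). Col2a1 was at least 37.9-fold higher in condyle than in whole body, a log2 difference of 5.34 ± 0.82 (SE, adjusted p = 0.0139). In fossa it was at least 38.4-fold higher than in whole body, a difference of 5.36 ± 0.82 (adjusted p = 0.00606). Condyle minus fossa was -0.02 ± 0.82 (adjusted p = 0.99), with a 95% interval of -1.95 to 1.91. Without condyle array 1 the condyle difference from whole body was 5.28 with adjusted p = 0.0505, and without condyle array 2 it was 5.07 with adjusted p = 0.05002, just short of the threshold.

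Collagen IX is a collagen with interrupted helices that carries a short arm out from the fibril surface. Col9a1 probe set 1428571_at had log2 levels of 12.90, 12.74 and 11.57 in condyle, 13.36, 12.93 and 11.60 in fossa, and 8.99, 8.52 and 8.30 in whole body. All values were above background and the joint arrays did not overlap whole body. The log2 difference was 3.80 ± 0.53 for condyle minus whole body (14.0-fold, adjusted p = 0.0105) and 4.03 ± 0.53 for fossa minus whole body (16.3-fold, adjusted p = 0.0036). The 95% interval of condyle minus fossa ran from -1.49 to 1.04. The other Col9a1 probe set, 1421381_a_at, had log2 levels of 5.02, 5.34 and 3.84 in condyle, 4.95, 3.75 and 3.85 in fossa, and 4.05, 3.80 and 3.86 in whole body. Here the groups overlapped, and neither joint tissue differed from whole body, with differences of 0.83 ± 0.46 in condyle (adjusted p = 0.282) and 0.28 ± 0.46 in fossa (adjusted p = 0.713). On the same array the first probe set stood above the second by 7.67 ± 0.25 in condyle, 8.45 ± 0.71 in fossa, against 4.70 ± 0.25 in whole body (SD, n = 3 each). The sources used here do not say which annotated start either probe set reads.

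Col9a2 probe set 1450673_at had log2 levels of 4.78, 6.13 and 4.50 in condyle, 4.99, 5.58 and 4.15 in fossa, and 2.52, 2.72 and 2.46 in whole body. All 3 whole body arrays were at background, and all joint arrays were above it. Col9a2 was at least 3.87-fold higher in condyle (adjusted p = 0.0305) and at least 3.30-fold higher in fossa (adjusted p = 0.0207) than in whole body. It lost the condyle call with any whole body array left out, with quantile normalization and without condyle array 1 or 2, and the fossa call with any whole body array or fossa array 1 or 2 left out (adjusted p = 0.0509 to 0.0842 and 0.0536 to 0.0597 over these). Condyle minus fossa was 0.23 ± 0.50 (95% interval -0.95 to 1.40).

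Col9a3 had 3 probe sets. With 1460693_a_at its log2 levels were 12.77, 13.05 and 11.80 in condyle, 13.03, 13.38 and 11.53 in fossa, and 7.74, 8.34 and 8.47 in whole body. With 1460734_at they were 10.98, 11.16 and 9.85 in condyle, 11.62, 11.82 and 9.93 in fossa, and 5.14, 5.05 and 4.98 in whole body. Neither probe set had a joint array within the range of whole body. The first gave a difference of 4.35 ± 0.54 for condyle (adjusted p = 0.00683) and 4.46 ± 0.54 for fossa (adjusted p = 0.0026) against whole body. The second gave 5.60 ± 0.55, or 48.6-fold, for condyle (adjusted p = 0.00303) and 6.07 ± 0.55, or 67.0-fold, for fossa (adjusted p = 0.000846), the largest differences among the 10 probe sets in both comparisons. The third, 1420280_x_at, is of a kind whose probes may also match other sequences. It was near the background limit throughout, at 3.04, 3.73 and 3.02 in condyle, 4.64, 4.12 and 3.73 in fossa, and 3.15, 3.10 and 3.00 in whole body. It was at least 1.95-fold higher in fossa than in whole body (adjusted p = 0.036), and its condyle difference was 0.18 ± 0.27 (adjusted p = 0.645). It was also the sole collagen probe set whose condyle and fossa arrays did not overlap, lower in condyle by log2 intensity on all 3 arrays, a separation found in 23.6% of all probe sets. Its condyle minus fossa difference of -0.90 ± 0.27 did not pass the threshold (adjusted p = 0.0653).

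Collagen XI limits fibril width, and loss of its Col11a1 chain in the mouse leaves thick, sparse fibrils in cartilage. Col11a1 probe set 1418599_at had log2 levels of 9.22, 9.11 and 7.58 in condyle, 8.90, 9.92 and 8.10 in fossa, and 4.71, 5.77 and 5.68 in whole body. The joint arrays lay above all whole body arrays, with a difference of 3.25 ± 0.62 for condyle (9.48-fold, adjusted p = 0.0292) and 3.58 ± 0.62 for fossa (12.0-fold, adjusted p = 0.00984). The condyle call was lost without condyle array 1 or 2, without any whole body array and with quantile normalization (adjusted p = 0.0531 to 0.0949). The second Col11a1 probe set, 1449154_at, had log2 levels of 10.59, 10.15 and 8.57 in condyle, 9.76, 11.15 and 8.88 in fossa, and 8.15, 8.50 and 8.61 in whole body. Condyle array 3 fell within the range of whole body, and neither difference passed, at 1.35 ± 0.69 in condyle (adjusted p = 0.261) and 1.51 ± 0.69 in fossa (adjusted p = 0.188). Within an array, 1449154_at stood above 1418599_at by 1.14 ± 0.21 in condyle, 0.96 ± 0.24 in fossa, against 3.03 ± 0.37 in whole body (SD, n = 3 each). The gap between these probe sets of 1 gene was wider on every whole body array than on any joint array, and the size of the Col11a1 difference depends on the probe set. The sources used here do not place their probes in the transcripts.

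Col11a2 was the sole gene of the 6 with no called probe set. Its probe set 1423578_at had log2 levels of 6.59, 6.96 and 4.18 in condyle, 6.24, 7.54 and 5.90 in fossa, and 4.25, 2.39 and 4.09 in whole body. Condyle array 3 fell within the range of whole body, while the 3 fossa arrays lay above it. The difference from whole body was 2.34 ± 0.88 in condyle (adjusted p = 0.178, 95% interval 0.25 to 4.42) and 2.99 ± 0.88 in fossa (adjusted p = 0.0625, 95% interval 0.90 to 5.08). With quantile normalization the fossa difference passed (adjusted p = 0.0464), as it did in 6 other of 19 refits.

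**Figure D2:**
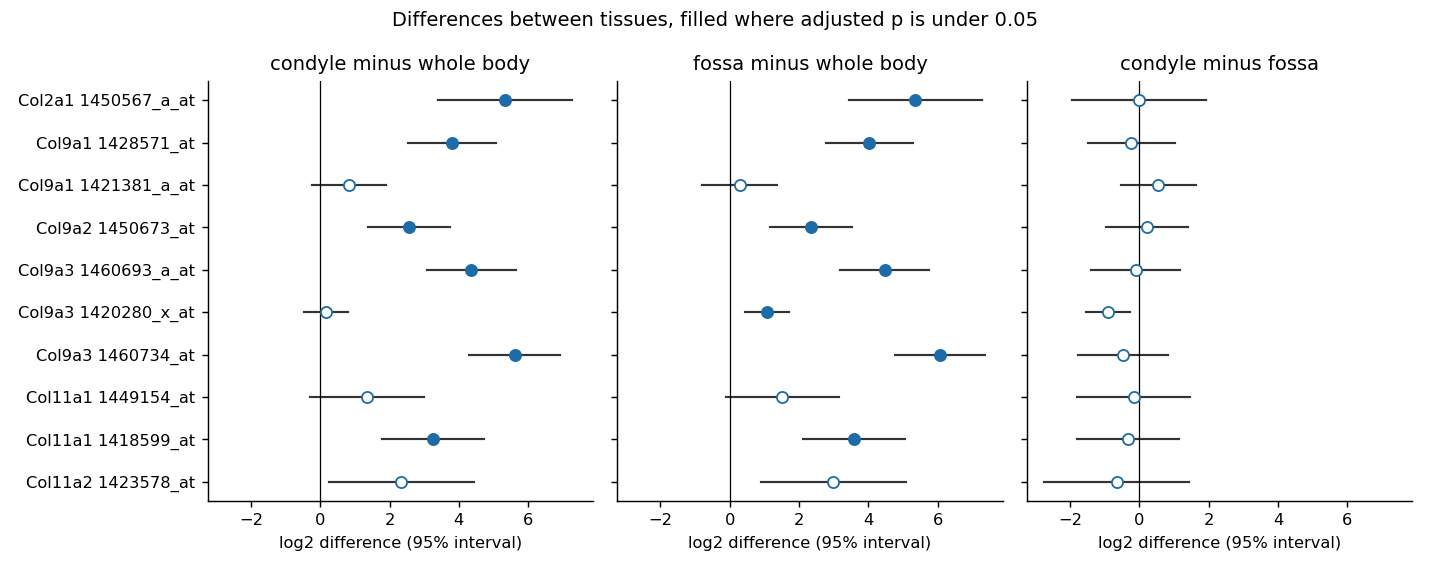
Log2 difference of each collagen probe set for each joint tissue against whole body and between condyle and fossa, with 95% intervals from limma. Filled points have adjusted p under 0.05, which holds for 6 probe sets in condyle and 7 in fossa against whole body and for 0 between condyle and fossa.

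Counted by tissue, 6 probe sets had all condyle arrays above all whole body arrays and 9 had all fossa arrays above them, against 12.5% and 10.8% of all probe sets. The order of the group means was fossa, condyle, whole body for 8 of the 10 probe sets, but in none of them did the neighbours fossa and condyle differ by the test. Col9a2 and Col9a1 probe set 1421381_a_at had their highest mean in condyle.

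The members varied together across replicates. Condyle array 3 was the lowest of its group for all 10 probe sets, and fossa array 3 for 9 of 10. Over all probe sets condyle array 3 was the lowest of its group in 40.0% and fossa array 3 in 31.0%. The drop on these arrays was not limited to the collagens: condyle array 3 was the lowest for 8 and fossa array 3 for 7 of the 10 chondrocyte markers, and for 53 and 30 of the 71 genes of the lists described below, in which fossa array 1 was the lowest for 36. The mean log2 level of the 6 genes, 1 probe set each, was 9.52, 9.82 and 8.23 in condyle, 9.71, 10.02 and 8.31 in fossa, and 6.03, 5.83 and 5.83 in whole body. With condyle array 3 and fossa array 3 left out together, a setting chosen after seeing the data, 6 probe sets were higher in condyle and 7 in fossa than in whole body, and 1 was lower in condyle than in fossa. Of all 45037 probe sets, 808, 870 and 488 were called in these directions in that fit.

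Markers of other cell types also moved between arrays. The 10 chondrocyte markers were all measured. All 10 were above background on each condyle array and on fossa array 2, and 9 were on fossa arrays 1 and 3. They had a log2 summed level of 12.03 to 12.37 in condyle, 11.61 to 12.92 in fossa and 7.78 to 7.97 in whole body. On the whole body arrays 8, 8 and 6 of them were above background, and Chad was at background on all 3. The 6 of 8 osteoblast and osteocyte markers that were measured summed to 12.33 to 14.53 in condyle, 12.85 to 14.69 in fossa and 10.87 to 11.20 in whole body. Much of this sum was Col1a1, which alone stood at 12.01 to 14.00 in condyle. Of the 6 markers, 0 were called higher in condyle than in whole body and 2 in fossa, Dmp1 and Col1a1, against 7.05% and 4.2% of all genes. Of the 6 hypertrophic chondrocyte markers, Col10a1 and Ihh were at background in all 3 groups. Pth1r and Panx3 were called higher in each joint tissue than in whole body, against 7.05% and 4.2% of all genes. The list, which shares Ibsp with the osteoblast and osteocyte list, summed to 11.42 to 13.06 in condyle, 10.92 to 13.78 in fossa and 9.78 to 9.96 in whole body. The 8 epithelium markers summed to 11.01 to 12.36 in condyle, 7.56 to 11.66 in fossa and 9.90 to 10.15 in whole body. The 8 liver markers summed to 9.93, 11.79 and 15.24 in condyle, 6.64, 5.94 and 15.07 in fossa, and 16.31, 16.11 and 16.21 in whole body. Within the joint groups their sum was thus highest on condyle array 3 and fossa array 3, the arrays with the lowest collagen levels of their groups. Their mean log2 level was 4.45 and 4.48 there, 3.94 and 4.15 on the other condyle arrays and 3.18 and 2.80 on the other fossa arrays. In whole body it was 11.21 to 11.66. Such a sum is set mainly by the brightest genes, so it does not show that the listed genes rose together. Apoa1, Serpina1b, Fgb and Ahsg were at background on all condyle arrays, and Alb, Apoa1 and Fgb on all fossa arrays. Of the 8 markers, 7, all but Ttr, were called lower in each joint tissue than in whole body. The shares of all genes called lower were 2.91% in condyle and 15.9% in fossa. Skeletal muscle markers summed to 8.91 to 11.75 in condyle, 10.21 to 12.28 in fossa and 12.97 to 13.19 in whole body. The part of these cell types in the collagen differences was not tested.

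RNA measures differed as well. Probe sets for 18S ribosomal RNA averaged 5.86 to 9.63 in condyle, 6.91 to 9.52 in fossa and 13.22 to 13.47 in whole body (log2). The 3′ minus 5′ log2 difference of Gapdh, which grows as RNA or labelling is truncated, was 5.33, 5.64 and 6.86 in condyle, 3.69, 4.97 and 5.31 in fossa, and 6.52, 5.67 and 5.34 in whole body. It was the highest of its group on condyle array 3 and on fossa array 3, the arrays with the lowest collagen levels of their groups. The same measure of Actb was 6.70, 6.52 and 6.71 in condyle, 4.79, 6.15 and 6.60 in fossa, and 5.90, 5.74 and 6.57 in whole body. By Actb, condyle array 3 thus hardly stood above condyle array 1. The part of either measure in the collagen levels was not tested.

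**Figure D3:**
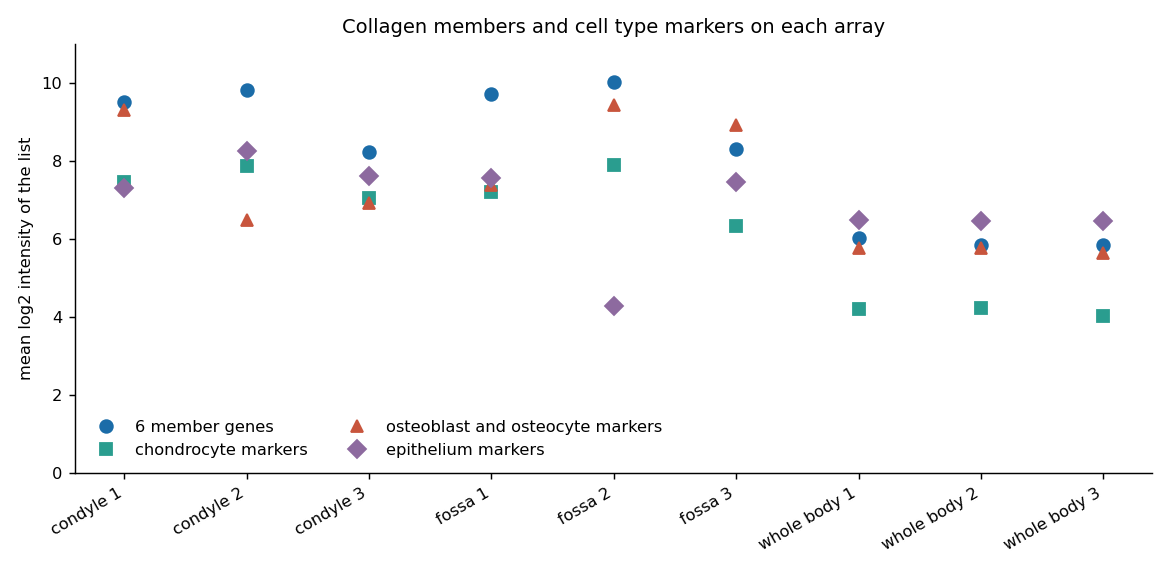
Mean log2 intensity on each array of the 6 collagen genes, 1 probe set each, and of the measured chondrocyte, osteoblast and osteocyte, and epithelium markers. The collagen mean lies between 8.23 and 10.02 on the joint arrays and between 5.83 and 6.03 on the whole body arrays.

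Whether the members changed unequally was asked within arrays, by setting each gene's log2 level against that of Col2a1 on the same array. This removes a scale factor shared by all probe sets of the array. It does not remove background or RNA truncation, which may act unequally on different probe sets. For Col11a1 minus Col2a1 the mean was 0.39 ± 0.65 in condyle, 0.53 ± 1.47 in fossa, against 4.38 ± 1.01 in whole body (SD, n = 3 each). The change relative to Col2a1 was thus -3.98 for condyle minus whole body and -3.84 for fossa minus whole body, with no overlap between groups (p = 0.1 each, exact two-sided permutation test). With the other Col11a1 probe set, 1418599_at, a setting chosen after seeing the data, the changes were -2.09 for condyle (exact permutation p = 0.1) and -1.77 for fossa (exact permutation p = 0.3), and fossa then overlapped whole body. For condyle minus whole body the changes of Col9a1, Col9a2, Col9a3 and Col11a2 relative to Col2a1 were -1.53, -2.77, -0.98 and -3.00, with exact permutation p of 0.1, 0.1, 0.2 and 0.1. For fossa minus whole body they were -1.33, -3.01, -0.89 and -2.37, with exact permutation p of 0.1, 0.1, 0.5 and 0.3. The sign for Col9a3 depended on the probe set: with 1460734_at, also chosen after seeing the data, the changes were 0.27 in condyle and 0.71 in fossa (exact permutation p = 0.6 and 0.2). For condyle minus fossa the 5 changes lay between -0.63 and 0.25. With 3 arrays a group the smallest p the test allows is 0.1, and the smallest of the 15 tests after adjustment was 0.214, so none passed. Col9a2 was at background on all whole body arrays, Col2a1 on the third and Col11a2 on the second, so these changes include values at the floor of the measurement.

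**Figure D4:**
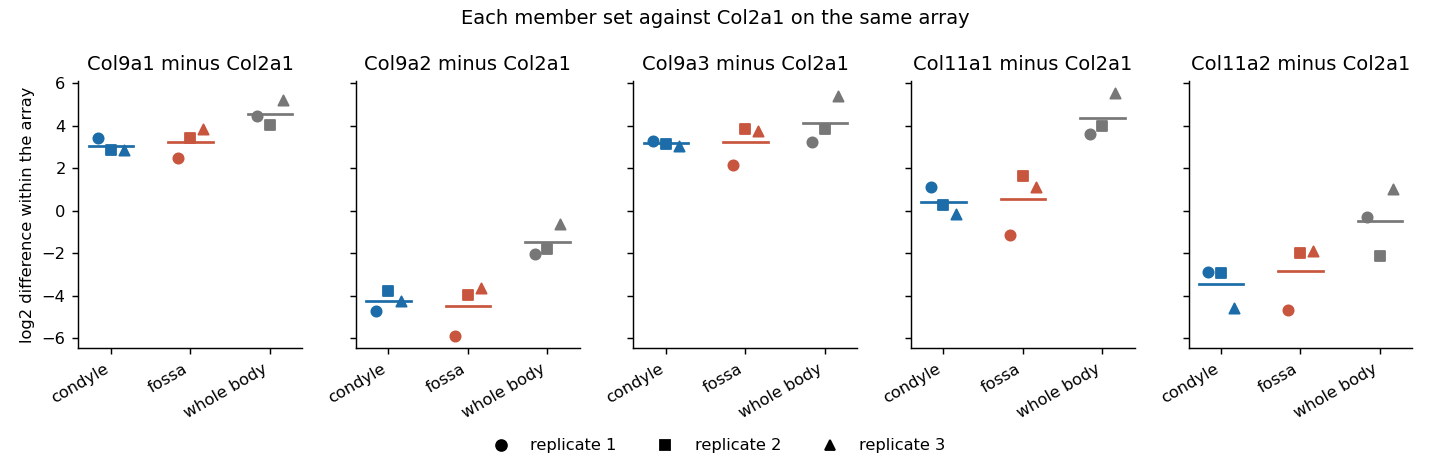
Log2 level of each of the other 5 collagen genes minus that of Col2a1 on the same array, in condyle, fossa and whole body, with the mean of each group as a line. For Col11a1 all 3 whole body arrays lie above all joint arrays.

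Proteins that bind or regulate the fibrils were described from a list of 14 genes, each by 1 probe set. Of these 7 were higher in condyle than in whole body, 7 in fossa, and 0 lower in either, where 7.05% of all genes were higher and 2.91% lower in condyle, and 4.2% higher and 15.9% lower in fossa. Comp, whose product ties collagen IX to other matrix proteins, had log2 levels of 10.21, 10.09 and 10.98 in condyle, 10.19, 11.60 and 10.80 in fossa, and 5.12, 4.90 and 4.85 in whole body. No joint array overlapped whole body, and the difference was 5.47 ± 0.38 in condyle (adjusted p = 0.000778) and 5.90 ± 0.38 in fossa (adjusted p = 0.00021). Acan, which encodes aggrecan, the proteoglycan that fills the space between fibrils, was at least 86.2-fold higher in condyle (adjusted p = 0.00356) and at least 71.4-fold in fossa (adjusted p = 0.00158). Hapln1, whose product locks aggrecan to hyaluronan, was higher by 3.64 ± 0.56 in condyle and 2.94 ± 0.56 in fossa. Matn1, a matrilin that binds the fibril, was at least 6.65-fold higher in fossa (adjusted p = 0.0212), and its condyle difference was 2.06 ± 0.61 (adjusted p = 0.107). Prelp, a small leucine-rich protein, had log2 levels of 5.80, 6.73 and 4.88 in condyle, 2.89, 3.61 and 3.20 in fossa, and 2.60, 2.53 and 2.41 in whole body. It was at least 5.12-fold higher in condyle than in fossa (adjusted p = 0.0105), the single call of the list between the joint tissues, against 16.2% of all genes higher and 2.82% lower in condyle than in fossa. The other of the 2 Prelp probe sets had the same sign without passing.

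Among 13 other collagens of fibrils and their surface, 3 were higher in condyle than in whole body (Col5a1, Col12a1 and Col16a1) and 4 in fossa (Col1a1, Col1a2, Col5a1 and Col16a1), with 0 lower. Col1a1, which encodes the main chain of bone and tendon collagen, had log2 levels of 14.00, 12.05 and 12.01 in condyle, 12.46, 13.64 and 13.60 in fossa, and 10.61, 10.31 and 10.19 in whole body. Its difference from whole body was 2.86 ± 0.59 in fossa (adjusted p = 0.0182) and 2.31 ± 0.59 in condyle (adjusted p = 0.0698), and condyle minus fossa was -0.55 (adjusted p = 0.58). The other of the 2 Col1a1 probe sets was also higher in fossa than in whole body, without passing. Col5a1, a chain of the collagen V that takes the place of collagen XI in other tissues, was higher by 1.56 ± 0.31 in condyle (adjusted p = 0.0351) and 1.62 ± 0.31 in fossa (adjusted p = 0.0147). In each of these comparisons with whole body 2 of its 3 probe sets were called. Between condyle and fossa 1 of the 3 was called higher in condyle, while the one used here was at -0.07 (adjusted p = 0.911). Col12a1, a surface collagen of dense fibrous tissue, was higher in condyle than in fossa by 1.27 ± 0.31 (adjusted p = 0.037), a sign shared by 2 of its 4 probe sets. Col10a1, the collagen of hypertrophic cartilage, was at background on all 9 arrays, with log2 levels of 2.39 to 2.51.

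Enzymes and chaperones that fold and hydroxylate collagen chains were measured for 16 of 17 listed genes. In condyle 8 were higher than in whole body and in fossa 4, with 0 lower, and 2 were higher in condyle than in fossa. The shares of all genes given above apply to each list, and 2 of 16 is under the 16.2% of all genes called higher in condyle than in fossa. Serpinh1, a chaperone of the collagen helix, had log2 levels of 9.58, 9.14 and 9.25 in condyle, 8.68, 9.84 and 8.97 in fossa, and 5.41, 4.75 and 5.97 in whole body. It was higher by 3.95 ± 0.39 in condyle (adjusted p = 0.00304) and 3.79 ± 0.39 in fossa (adjusted p = 0.00136). The other of its 2 probe sets had the same sign in both without passing. Plod2, a lysyl hydroxylase of collagen, was higher in condyle than in whole body by 3.30 ± 0.47 (adjusted p = 0.0114) and than in fossa by 2.23 ± 0.47 (adjusted p = 0.022). Its second probe set of 2 shared both signs without passing. Colgalt1, which adds galactose to hydroxylysine, was likewise higher in condyle than in fossa, by 1.55 ± 0.29 (adjusted p = 0.0141), although the second of its 2 probe sets had the opposite sign without passing. Plod3, P3h3, Crtap and Serpinh1 were called in both joint tissues. The list's median difference was 2.10 for condyle, 1.04 for fossa and 1.01 for condyle minus fossa, where the median of all genes was -0.03, -0.11 and 0.21.

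For export and propeptide removal, 12 of 15 listed genes were measured. Adamts3, the protease that removes the amino propeptide of procollagen II, was higher by 2.07 ± 0.35 in condyle (adjusted p = 0.0196) and 2.00 ± 0.35 in fossa (adjusted p = 0.0105). Only 1 of its 2 probe sets, the one used here, lay above the background limit on any array. Pcolce2, an enhancer of carboxy propeptide removal, and Loxl3, a lysyl oxidase that crosslinks collagens, were also higher in both joint tissues than in whole body, which made 3 genes in each. Bmp1, the carboxy propeptide protease, was higher in condyle than in fossa by 1.23 ± 0.32 (adjusted p = 0.0437), but its other probe sets, 2 of 3, had the opposite sign without passing. Of 6 measured collagen receptors, 1 was called in each joint tissue against whole body. It was Itga10, the integrin chain through which chondrocytes bind collagen II, higher by 3.47 ± 0.61 in condyle (adjusted p = 0.0221) and 3.67 ± 0.61 in fossa (adjusted p = 0.00852).

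**Figure D5:**
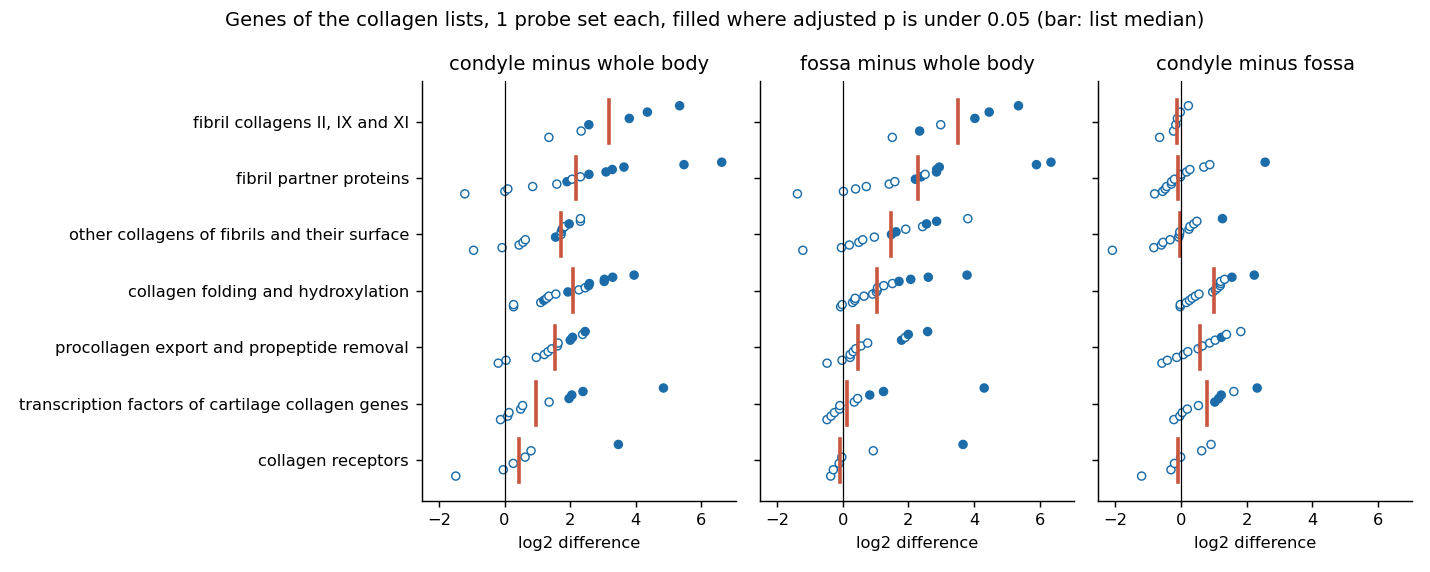
Log2 differences of the 6 collagen genes and of the genes of 6 related lists, 1 probe set each, in the 3 comparisons of tissues. Points are genes, filled where adjusted p is under 0.05, and the bar is the list median, which for the collagen genes is 3.19, 3.51 and -0.13.

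Transcription factors of cartilage collagen genes were listed together with Wwp2, which is not such a factor, and 10 of the 12 listed genes were measured. Of the 10, 4 were higher in condyle than in whole body, 3 in fossa than in whole body, and 4 in condyle than in fossa, with 0 lower. Wwp2 is among those called in both comparisons with whole body. Sox9, the factor that activates Col2a1, Col9 and Col11 genes in chondrocytes, had log2 levels of 5.46, 6.42 and 5.36 in condyle, 3.06, 3.94 and 3.27 in fossa, and 3.82, 3.78 and 3.74 in whole body. The condyle arrays lay above all others, while fossa and whole body overlapped and 1 fossa array was at background. Sox9 was higher in condyle than in whole body by 1.97 ± 0.33 (adjusted p = 0.0181) and than in fossa by 2.32 ± 0.33 (adjusted p = 0.0054), and fossa minus whole body was -0.36 ± 0.33 (adjusted p = 0.496). With quantile normalization the condyle difference from whole body had adjusted p = 0.0604, and without whole body array 1 or 2 it had adjusted p = 0.0529 or 0.0574. Of its 3 probe sets 2 were called in condyle minus fossa. In condyle minus whole body 2 were called higher, and the third had the opposite sign without passing.

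Sox6, a partner of Sox9, was read by a probe set whose probes may also match other sequences. Its log2 levels were 7.94, 8.34 and 7.80 in condyle, 6.69, 7.14 and 6.80 in fossa, and 5.81, 5.87 and 5.23 in whole body. The 3 groups did not overlap, and all 3 comparisons passed: 2.39 ± 0.22 for condyle and 1.24 ± 0.22 for fossa against whole body, and 1.15 ± 0.22 for condyle minus fossa (adjusted p = 0.00259, 0.0115 and 0.0167). With quantile normalization condyle minus fossa was 0.49 (adjusted p = 0.343), and all 4 of its probe sets were higher in condyle than in fossa, 2 of them past the threshold. Sox5 had differences of 1.36 in condyle (adjusted p = 0.213) and -0.25 in fossa (adjusted p = 0.804) against whole body, and its 7 probe sets disagreed, with 1 called higher and 1 lower in condyle than in fossa. Wwp2, a ubiquitin ligase that acts with Sox9 in cartilage and hosts a cartilage microRNA, was at least 27.7-fold higher in condyle (adjusted p = 0.00417) and at least 19.1-fold in fossa (adjusted p = 0.00252) than in whole body. Of its 6 probe sets 3 were called higher in condyle, and in fossa 2 were called higher and 1 lower. Over the 71 measured genes of the 6 lists, 26 were higher in condyle than in whole body, 22 in fossa than in whole body and 9 in condyle than in fossa, with 0 lower in any. These are 36.6%, 31.0% and 12.7% of the 71, beside 7.05%, 4.2% and 16.2% of all genes called higher, so the share between condyle and fossa is below that of all genes.

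Genes with profiles most like each member over the 9 arrays were ranked by the root mean square difference of log2 profiles, each centred on its own mean. The ranking covered 11491 genes above the background limit on at least 3 arrays, with predicted genes and unnamed clones left out. Nearest to Col2a1 were Wwp2 at 0.66, Col9a1 at 0.82, Col9a3 at 0.83, Neat1 at 0.86 and Acan and Susd5 at 0.87, followed by Cnmd at 1.03, Comp at 1.12, Ip6k2 at 1.25 and Meltf at 1.29 among the other genes. Cnmd encodes chondromodulin, a cartilage matrix protein, and Neat1 is a nuclear noncoding RNA. Col9a1 and Col9a3 were each the second nearest to the other, at 0.48. Susd5 at 0.35, Wwp2 at 0.49 and Cnmd at 0.54 were nearest to Col9a1 among the other genes, and Wwp2 at 0.44, Susd5 at 0.53 and Fgfr3, a growth factor receptor of chondrocytes, at 0.67 to Col9a3. Col9a2 stood at rank 30 from Col2a1 and Col11a2 at rank 73. The rank of Col11a1 depended on the probe set, at 359 with 1449154_at (2.05) and 10 with 1418599_at (1.28). Col9a3 likewise stood at rank 3 with 1460693_a_at and at rank 1 with 1460734_at (0.63), and the dim probe sets 1421381_a_at of Col9a1 and 1420280_x_at of Col9a3 lay at 2.36 and 2.35. Neighbours of Col11a1 were sought with 1449154_at only. Nearest to it were P3h4, a member of a collagen hydroxylation complex, at 0.37, and Rrbp1, a ribosome-binding protein of the endoplasmic reticulum, and Papss2, an enzyme that makes the sulphate donor, both at 0.38. Nearest to Col11a2 were Rflna at 0.58, Mia at 0.60 and Rcn3 at 0.66, and to Col9a2 Chad, a cartilage leucine-rich protein, at 0.38, and Loxl3 and Synpo at 0.42. These are descriptions of 9 arrays that share the same split of tissues.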

How the data were processed

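RNA from 3 condyle, 3 fossa and 3 whole body samples was hybridised as biotin-labelled cRNA, per the labels' protocols. What the authors deposited are probe set intensities on a linear scale, from 3.25 to 67158.9, judged by their range. Of tools, the submitters' processing notes name limma alone, without a version or its role. The background correction, normalization and probe summary are not given in the sources used here. The deposited normalization was kept.

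Intensities were turned into log2 values with a floor of 1, which none was under. The file has 45101 probe sets, of which 64 were array controls. Of the other 45037, 34945 had 1 gene symbol in the platform table, 932 several and 9160 none there. Symbols were updated through RefSeq names of GRCm38.p6, and 0 changed. Each of 18193 genes was represented by its brightest probe set, by mean log2 value over 9 arrays.

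The main test was limma 3.58.1 (lmFit and eBayes, R 4.3.3) on all 9 arrays in 1 fit of 3 groups, with 6 residual and 0.99 prior degrees of freedom, and Benjamini-Hochberg adjustment over 45037 probe sets. Genes of lists took their probe set's result from that fit. The script was tested on simulated data. Folds given as "at least" set the brighter group's mean against the dimmer group's mean of the higher of each array's background limit and its own value. Within-array changes were tested by exact permutation with Python 3.11.15, numpy 2.4.6, pandas 2.3.3 and scipy 1.17.1. Figures used matplotlib 3.10.9. The number of arrays limits the precision.

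The members, lists and tests were chosen with earlier results of these data known. The genes named were all member probe sets, up to 4 genes with the largest differences among those called in each pathway list, always Sox9, Sox5, Sox6, Acan, Comp, Matn1, Col10a1, Col1a1 and Serpinh1, and the genes with the nearest profiles. Other genes are named only within counts or marker lists. Listed genes without a measured probe set are not analysed here. Alternatives were quantile normalization, centring on the median or 75th percentile, a floor at or filter by the background limit, log2 of intensity plus 16, 1 probe set a gene, trended robust eBayes, the 6 arrays compared alone, the replicate number as a block, and leaving out each array.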

Additional observations from a re-analysis of the deposited data

Results flagged for a closer look

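Sox9 and Sox6 differed between the joint tissues, so their change against whole body differed too: condyle minus fossa was 2.32 for Sox9 and 1.15 for Sox6 on the log2 scale, by limma. Sox9 was higher on 3 of 3 condyle arrays than on any fossa array and passed under each alternative run, with a log2 difference of 1.38 to 2.58 (adjusted p = 0.0021 to 0.0224). Sox6 did not pass with quantile normalization (0.49, adjusted p = 0.343), with 75th percentile centring (0.48, adjusted p = 0.119), without fossa array 1 (1.06, adjusted p = 0.0527) or without fossa array 3 (1.11, adjusted p = 0.0554). The 6 collagen genes did not differ between condyle and fossa in the same fit.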

How the results depend on the processing

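Of the called collagen probe sets, the 6 of condyle minus whole body stayed called in 97 of 112 refits and the 7 of fossa minus whole body in 114 of 130. Col9a1 1428571_at and Col9a3 1460693_a_at and 1460734_at stayed called in every refit of both, and Col2a1 and Col11a1 1418599_at in every refit of fossa. The count for condyle was 3 to 6 with 1 array left out, at 3 without condyle array 1 and also without condyle array 2. For fossa it was 5 to 8 with 1 array left out, and 4 of 6 with 1 probe set a gene. Between condyle and fossa it was 1 with quantile normalization, with median centring and with 75th percentile centring, where Col9a3 1420280_x_at was lower in condyle, and 0 to 1 with 1 array left out. With condyle array 3 and fossa array 3 left out together, chosen after seeing the data, it was 1, Col9a3 1460734_at at -0.65 (adjusted p = 0.0391). In that fit 488 of 45037 probe sets were called lower in condyle than in fossa. Col9a2 lost its condyle call with quantile normalization (adjusted p = 0.0615) and both its calls with log2 of intensity plus 16 (0.0955 in condyle, 0.0858 in fossa), and Col11a1 1418599_at its condyle call with quantile normalization (0.0531). The causes were not tested. Uncalled differences took the opposite sign in 2 of 74 refits for condyle, 1 of 56 for fossa and 19 of 186 for condyle minus fossa. Over all probe sets 2790 were called in condyle minus whole body, against 1765 with quantile normalization, 27750 with 75th percentile centring, 1659 with the replicate block and 1520 to 3043 with 1 array left out. In fossa minus whole body 7583 were called, against 13352 with median centring, 4053 with 75th percentile centring, 3759 with the floor, 3559 with 1 probe set a gene and 4796 to 7390 with 1 array left out. In condyle minus fossa 7206 were called, against 26461 with 75th percentile centring, 4019 with the floor, 3440 with 1 probe set a gene and 4319 to 8084 with 1 array left out. The share of calls that were higher was 68.0%, 21.9% and 74.9% in these comparisons, 47.6%, 47.4% and 52.5% with quantile normalization, 78.6%, 67.5% and 62.7% with median centring, and 8.90%, 48.0% and 6.08% with 75th percentile centring, which moved the median of all probe sets to -0.45, 0.19 and -0.63. Deviations from the group means correlated at -0.33 to 0.14 between same-numbered arrays. The highest correlations were between differently numbered arrays, 0.40 for condyle array 1 with fossa array 2 and 0.32 for condyle array 2 with fossa array 1. Whether arrays share embryos or a batch under other numbers cannot be told from these values. With the replicate block 6, 6 and 0 collagen probe sets were called.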
